A study of Sus scrofa with 20 samples.

Results

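The genes described here are the small heat shock proteins of pig skeletal muscle, HSPB1, HSPB2, HSPB3, HSPB6, HSPB7, HSPB8 and CRYAB, together with BAG3, the co-chaperone that binds HSPB8. They were taken as every probe set whose only gene symbol in the array annotation is one of these 8 names, which gave 13 of the 45922 porcine probe sets tested and 8 of the 13609 genes with a symbol. RNA from longissimus dorsi muscle of adult pigs was hybridised to Porcine Snowball arrays of Affymetrix, each animal to its own array, for 10 Duroc pigs and 10 Pietrain pigs that are homozygous negative for malignant hyperthermia at RYR1 (PiNN). The PiNN animals came from a line in which the RYR1 mutation segregates, and both breeds were fattened at the same station on the same diet. The sample labels place sampling 24 h before slaughter while the study describes tissue taken after slaughter, which was not resolved here. Sex is given in the study for the animals with bisulfite sequencing libraries by breed, without animal numbers, so that it could not be assigned to arrays. Values are log2 signals as deposited, and a difference is the Duroc mean minus the PiNN mean.

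Small heat shock proteins share an alpha-crystallin domain and hold unfolding proteins in solution without using ATP, until chaperones of the HSP70 family refold them or they are degraded. Striated muscle holds many of them, where they associate with desmin, actin, titin and filamin at the Z-disc and along the sarcomere. BAG3 is not a small heat shock protein itself: it links HSPB8 to HSPA8 and the ubiquitin ligase STUB1, and this complex passes damaged filamin to autophagy in a route called chaperone-assisted selective autophagy.

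The arrays were alike in level, and their signals were highly correlated. Array medians lay between 4.61 and 4.73, and Pearson correlations between arrays between 0.953 and 0.986. The mean of 69 background probe sets was 3.93, with array means of 3.78 to 4.21 and the highest on PiNN 49. All 7 skeletal muscle markers were above background. So were 2 of 3 measured cardiac muscle markers (all but NPPA), 2 of 3 leukocyte markers (all but CD3E) and 3 of 4 red blood cell markers (all but AHSP). Of the 13 member probe sets 11 lay above background and 2 did not, namely SNOWBALL_033337_st of HSPB8 and SNOWBALL_032118_st of CRYAB.

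Of the 13 probe sets, 2 passed the comparison of the breeds, CRYAB and HSPB2, and both had the higher signal in PiNN. Of all 45922 probe sets 4.17% passed in either direction, 1.41% with the higher signal in PiNN and 2.76% with the higher signal in Duroc (limma, Benjamini-Hochberg adjusted p under 0.05). Among the 28623 probe sets above background these shares were 6.08% in either direction and 2.11% towards PiNN, and over the brightest probe set of each gene 6.39% passed in either direction. Mean CRYAB signal was 1.47-fold and mean HSPB2 signal 1.41-fold that of Duroc. The brightest probe sets of 7 of the 8 genes had a higher mean in PiNN, HSPB6 being the exception, against 56.7% of all genes, and their median difference was -0.22 where that of all genes was -0.03. Over probe sets, 11 of 13 means were higher in PiNN, as against 54.9% of all, and 10 of the 11 above background, as against 56.0%. The same animals give all these values and some genes have several probe sets, so that the counts are not of independent values. No test was made of them, and the members were chosen with earlier results of these data known. The breeds overlapped at all 13 probe sets, and 0.122% of all probe sets showed no overlap. In bulk muscle, fewer cells that express a gene and less of its RNA per cell cannot be told apart.

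**Figure D1:**
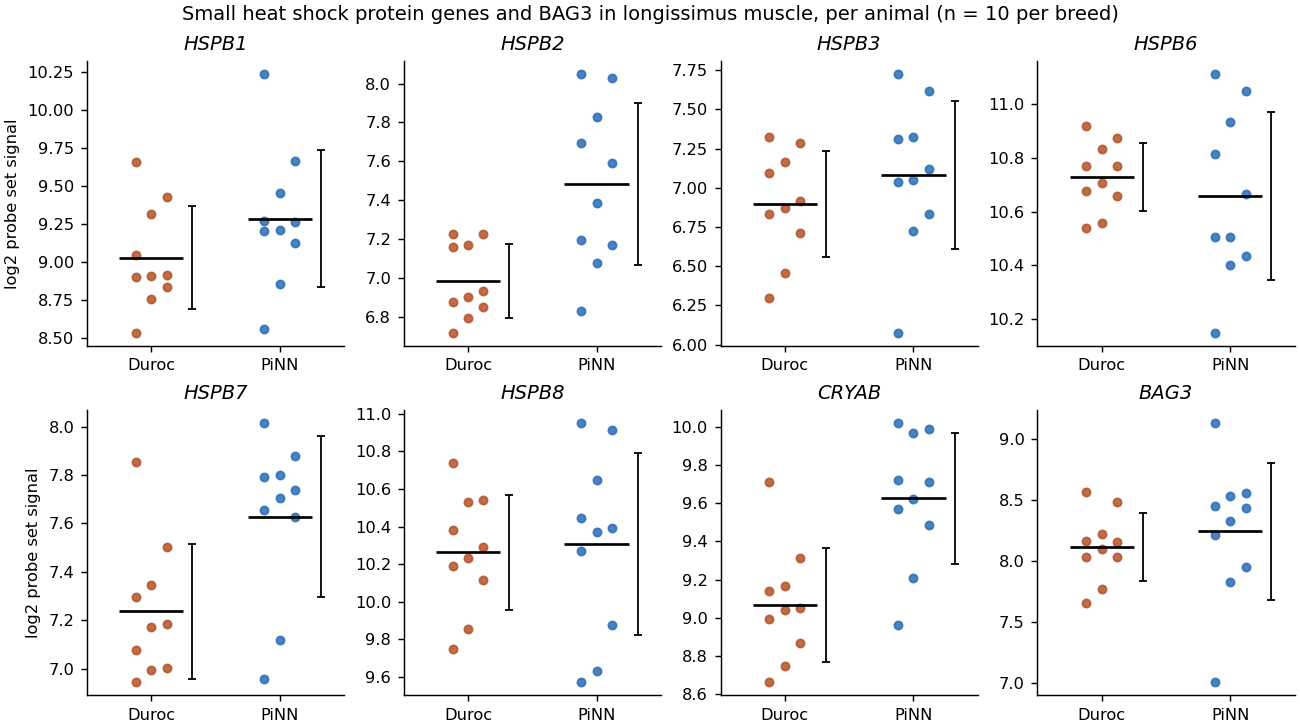
Log2 signal (y axis) of the brightest probe set of each of the 8 genes in 10 Duroc and 10 PiNN animals (x axis), with 1 point per animal, a line at the mean and a bar of 1 SD. For HSPB2 all 10 Duroc animals lie below the PiNN median of 7.49, while for HSPB6 the PiNN animals lie on both sides of the Duroc range of 10.54 to 10.92.

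CRYAB, or alphaB-crystallin, is the small heat shock protein best known as a chaperone of desmin, and its mutations cause a desmin-related myopathy in humans. At SNOWBALL_012382_st the 10 Duroc animals ran from 8.66 to 9.71 with a median of 9.05, and the 10 PiNN animals from 8.96 to 10.02 with a median of 9.67. Of the Duroc animals 9 were below the PiNN median, Duroc 59 being the exception at 9.71, and 4 PiNN animals were above every Duroc animal. The lowest PiNN signals were those of animals 41 (8.96) and 49 (9.21).

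The mean of CRYAB was 9.07 ± 0.30 (SD, n = 10) in Duroc and 9.63 ± 0.34 in PiNN. The difference of -0.56 (SE 0.14) had a 95% interval of -0.84 to -0.28 and an adjusted p of 0.0213 by limma, and it passed in all 20 fits that left out 1 animal, with adjusted p between 0.00811 and 0.0469. The other CRYAB probe set above background, SNOWBALL_012453_st, was dimmer, at 5.40 ± 0.51 in Duroc and 5.50 ± 0.36 in PiNN. It differed by -0.10 (SE 0.18, adjusted p = 0.856 by limma), and its interval of -0.47 to 0.28 overlapped that of the brighter probe set. Whether the breed difference was unlike at these probe sets was not tested. Within breeds the correlation between them was 0.42 over 20 animals. The call for CRYAB therefore rests on 1 of its probe sets, and which transcripts each of them reads was not tested.

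HSPB2 is made mainly in heart and skeletal muscle, where it binds the myotonic dystrophy protein kinase DMPK and forms complexes with HSPB3. Its probe set, SNOWBALL_012338_st, ran from 6.72 to 7.23 in Duroc with a median of 6.92, and from 6.83 to 8.05 in PiNN with a median of 7.49. All 10 Duroc animals were below the PiNN median, and 6 of the PiNN animals were above every Duroc animal. The PiNN animals were more spread out: animals 19, 20, 21 and 22 had signals of 8.03, 7.83, 8.05 and 7.69, while animals 49, 62, 47 and 35 had 6.83, 7.08, 7.17 and 7.19, within the Duroc range.

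Mean HSPB2 signal was 6.99 ± 0.19 (SD, n = 10) in Duroc and 7.48 ± 0.42 in PiNN. The difference was -0.50 (SE 0.14, 95% interval -0.78 to -0.22, adjusted p = 0.0394 by limma). This call was close to the threshold. It held in 9 of the 20 fits without 1 animal and was lost without any one of Duroc 24, 28, 32, 42, 46 or 58 or of PiNN 19, 20, 21, 22 or 36, where adjusted p reached 0.0748. The difference itself stayed between -0.57 and -0.44 in these 20 fits. With the ordinary ANOVA that the study's methods name, adjusted p was 0.0666.

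HSPB2 and CRYAB are neighbours in the RefSeq annotation of Sscrofa11.1, where their annotated intervals overlap. Whether the array's probes separate their transcripts could not be checked, because the probe sequences were not analysed here. The correlation of their signals was 0.28 over 20 animals (permutation p = 0.273) after each breed was centred on its mean. It was 0.52 in the Duroc animals and 0.20 in the PiNN animals. With the breed means left in it was 0.59 over all 20 animals (permutation p = 0.00703).

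HSPB3, the partner of HSPB2, is a muscle protein whose mutations cause a motor neuropathy in humans. It ran from 6.30 to 7.32 in Duroc with a median of 6.89, and from 6.07 to 7.73 in PiNN with a median of 7.08. Both the lowest and the highest animals were PiNN, numbers 49 and 20. The means were 6.90 ± 0.34 and 7.08 ± 0.47 (SD, n = 10 each), and the difference of -0.19 (SE 0.17, 95% interval -0.54 to 0.16) gave an adjusted p of 0.652 by limma.

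HSPB7, which holds filamin C and is most abundant in heart and skeletal muscle, ran from 6.95 to 7.85 in Duroc with a median of 7.18, and from 6.96 to 8.01 in PiNN with a median of 7.72. As with CRYAB, 9 of the 10 Duroc animals were below the PiNN median and Duroc 59 was above it. The means of 7.24 ± 0.28 and 7.63 ± 0.33 (SD, n = 10 each) differed by -0.39 (SE 0.13, 95% interval -0.66 to -0.12). This missed the threshold with an adjusted p of 0.0962 by limma. It passed without Duroc 59 (adjusted p = 0.0412) and without PiNN 35, the lowest PiNN animal (adjusted p = 0.0338).

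HSPB1, or HSP27, binds actin and is phosphorylated by MAPKAPK2 and MAPKAPK3, kinases downstream of p38. At SNOWBALL_004330_st it ran from 8.53 to 9.65 in Duroc with a median of 8.91, and from 8.56 to 10.24 in PiNN with a median of 9.24. The highest animal of each breed, Duroc 31 and PiNN 62, was also the highest at the other HSPB1 probe set, SNOWBALL_004305_st, and within breeds the signals of these probe sets correlated at 0.94 (rho 0.89, 20 animals). The difference was -0.26 (SE 0.16, adjusted p = 0.470 by limma) at the former and -0.39 (SE 0.16, adjusted p = 0.203) at the latter. The latter had an unadjusted p of 0.0256, a level that 17.3% of all probe sets passed, 8.19% of all with the higher mean in PiNN.

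HSPB6, or HSP20, is phosphorylated by protein kinase A and takes part in the relaxation of smooth muscle. It ran from 10.54 to 10.92 in Duroc with a median of 10.74, and from 10.15 to 11.11 in PiNN with a median of 10.59. The Duroc range lay inside the PiNN range, and the PiNN SD was 2.47 times that of Duroc. The means of 10.73 ± 0.13 and 10.66 ± 0.31 (SD, n = 10 each) differed by 0.07, with an interval of -0.15 to 0.29 (adjusted p = 0.808 by limma).

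HSPB8, which recognises misfolded clients in the complex with BAG3, ran at SNOWBALL_016512_s_st from 9.75 to 10.74 in Duroc with a median of 10.26, and from 9.57 to 10.95 in PiNN with a median of 10.38. The 3 lowest PiNN animals were 49, 47 and 41, at 9.57, 9.63 and 9.88. The difference was -0.04 with an interval of -0.39 to 0.30 (adjusted p = 0.936 by limma). BAG3 at SNOWBALL_024757_st ran from 7.65 to 8.56 in Duroc with a median of 8.12, and from 7.01 to 9.13 in PiNN with a median of 8.38. The same 3 PiNN animals were the lowest of their breed, at 7.01, 7.95 and 7.83, and PiNN 62 was the highest. BAG3 differed by -0.12, with an interval of -0.50 to 0.25 (adjusted p = 0.806), and its other probe set, SNOWBALL_017238_s_st, by -0.06 (adjusted p = 0.816).

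**Figure D2:**
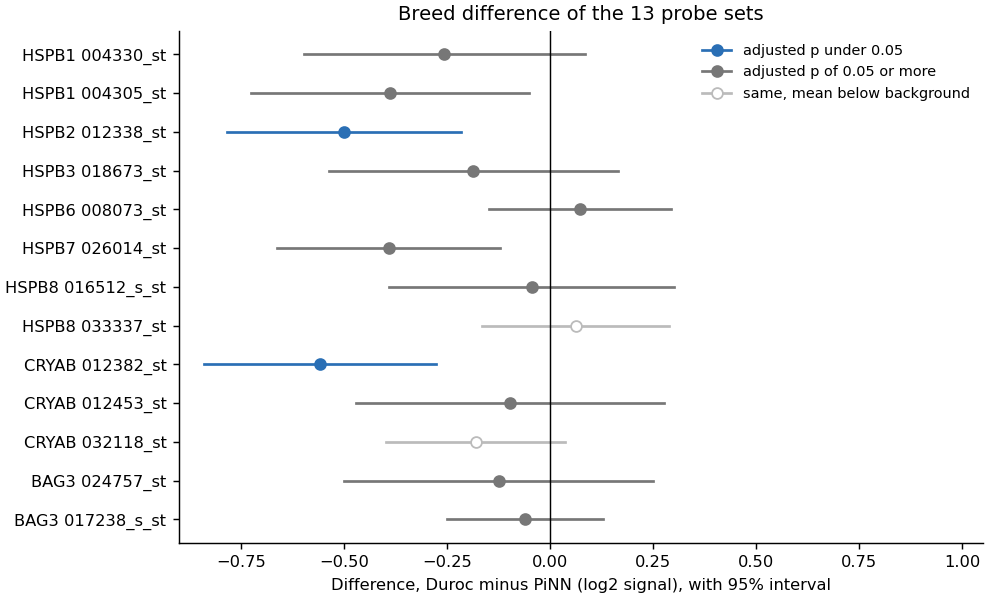
Difference of the breeds (x axis, Duroc minus PiNN, log2) at each of the 13 probe sets (y axis), with 95% intervals and the 2 that passed marked. The intervals of 9 of the 13 probe sets include 0, and 11 of the 13 differences lie on the PiNN side.

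The spread within breeds was the wider in PiNN for most of these genes. Of the 11 probe sets above background 10 had a larger SD in PiNN, all but SNOWBALL_012453_st of CRYAB, where 56.2% of all probe sets above background did. Without PiNN 49 the count was 9 of 11, against 47.1%. The same animals give all 11 values, so that these are not independent, and no test was made. A wider spread in PiNN was not particular to the members. It was also seen at all measured slow fibre genes but CASQ2, for example TNNI1 (SD 0.90 in PiNN, 0.45 in Duroc).

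Marker genes of fibre types and of other cell types were measured beside the members. Of the 8 measured slow fibre genes 0 passed, but the means of all 8 were higher in Duroc, opposite to most members, with a median difference of 0.26. The mean level of the 8 was 9.84 to 11.08 in Duroc animals and 9.01 to 10.81 in PiNN animals. The same direction was seen for 4 of 5 adipocyte genes, with a median of 0.22 and mean levels of 6.38 to 7.29 in Duroc and 6.24 to 7.78 in PiNN, and 0 passed. Means were higher in PiNN for 7 of 8 fast fibre genes, with 0 passing, a median of -0.09 and mean levels of 13.04 to 13.31 in Duroc and 13.04 to 13.42 in PiNN. They were higher in PiNN for all 3 cardiac muscle genes, with 0 passing, a median of -0.21 and mean levels of 4.89 to 5.43 and 5.05 to 5.59. In the fast fibre list and in the cardiac list 2 genes each had an unadjusted p under 0.05. Of the 4 smooth muscle genes 0 passed, with a median of -0.17 and mean levels of 6.49 to 6.88 and 6.41 to 7.11. Of the 4 red blood cell genes 1 passed. ALAS2, the first enzyme of haem synthesis in red cells, was 3.91 ± 0.38 in Duroc and 4.42 ± 0.24 in PiNN (difference -0.51, adjusted p = 0.0327 by limma), and HBB, a haemoglobin chain, differed by -1.16 (adjusted p = 0.0527). SLC4A1, the anion exchanger of red cells, differed by -0.01 (adjusted p = 0.974), AHSP was below background, and the mean level of the 4 was 4.08 to 4.81 in Duroc and 4.45 to 5.24 in PiNN. The call for ALAS2 was lost without any one of Duroc 24, 28, 38, 46 or 59 or of PiNN 22, 35 or 36, with adjusted p up to 0.0673. Of the endothelial, fibroblast and leukocyte genes 0 passed, with median differences of 0.07, 0.12 and -0.06 in that order. The part of fibre types and of other cells in the differences of CRYAB and HSPB2 was not tested.

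Within breeds, the signals of several of these genes were correlated over animals. Pairs of other genes were not counted in this way, so whether such correlations are particular to the members was not tested. With each gene centred on its breed mean, 24 of the 28 pairs had a correlation above 0 over the 20 animals, with a median of 0.26 and a range of -0.30 to 0.79, and 7 pairs passed a permutation test within breeds (100000 resamples, Benjamini-Hochberg adjusted over the 28 pairs). HSPB2 and HSPB3 were the closest pair, with r = 0.79 (permutation p = 4.00e-05, adjusted p = 0.00112) and rho = 0.81 (permutation p = 2.00e-05). Their correlation was 0.67 in the Duroc animals and 0.84 in the PiNN animals, and 0.78 without PiNN 19 and 21, the animals farthest from the median of HSPB2.

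The other pairs that passed joined HSPB3 with HSPB8 (r = 0.66), HSPB3 with BAG3 (0.65), HSPB2 with HSPB8 (0.63), HSPB8 with BAG3 (0.60), CRYAB with BAG3 (0.59) and HSPB1 with CRYAB (0.58). Their adjusted permutation p lay between 0.0440 and 0.0467, and rho between 0.46 and 0.61, none of which passed the adjustment. Without the 2 animals farthest from the median of the first gene, r fell to 0.47 for HSPB3 with HSPB8, 0.39 for HSPB3 with BAG3 and 0.39 for HSPB8 with BAG3, in each case without PiNN 49. It was 0.74 for HSPB2 with HSPB8, 0.70 for CRYAB with BAG3 and 0.57 for HSPB1 with CRYAB. Without PiNN 49 alone, 1 of the 28 pairs passed, HSPB2 with HSPB3. HSPB6 was in none of the 7 pairs, and its correlations with the other genes ran from -0.30 to 0.25.

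**Figure D3:**
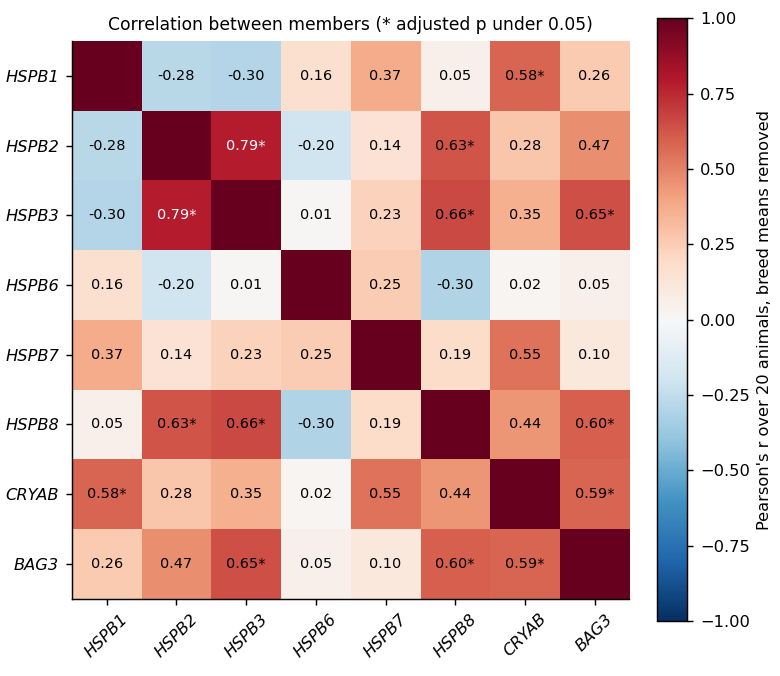
Pearson correlations of the brightest probe sets of the 8 genes over 20 animals after centring on breed means, both axes listing the genes, with the colour giving r from -1 to 1. The highest value is 0.79 for HSPB2 with HSPB3, and the row of HSPB6 stays between -0.30 and 0.25.

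The background of the arrays moved with some of these genes. After centring on breed means, HSPB3 was lower where the mean of the background probe sets was higher (r = -0.76, rho = -0.72, permutation p = 0.000220, adjusted over 8 genes p = 0.00176, 20 animals), as did BAG3 (r = -0.60, rho = -0.55, adjusted permutation p = 0.0150) and HSPB2 (r = -0.59, rho = -0.61, adjusted permutation p = 0.0150). Without PiNN 49 and Duroc 31, the animals farthest from the median background, r was -0.61, -0.45 and -0.49 in that order. With the background removed by regression, HSPB2 with HSPB3 had r = 0.65 and no longer passed (adjusted permutation p = 0.134), and the pair that passed was HSPB1 with CRYAB (r = 0.73, permutation p = 0.000930, adjusted p = 0.0260). With the background as a covariate of the breed comparison, HSPB2 differed by -0.61 (adjusted p = 0.00626 by limma) and CRYAB by -0.63 (adjusted p = 0.0101).

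By the sample numbers of the study, 4 Duroc and 3 PiNN animals also had a library for reduced representation bisulfite sequencing (RRBS), and the breeds were set against each other in animals with and without one. In the 6 Duroc and 7 PiNN animals without a library, HSPB2 differed by -0.75 (adjusted p = 0.0342 by limma) and CRYAB by -0.72 (adjusted p = 0.0392), where 0.856% of all probe sets passed towards PiNN. In the animals with one the differences were 0.00 and -0.20. HSPB7 differed by -0.37 and -0.38 in these animals without and with a library, and HSPB1 by -0.22 and -0.24.

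The differences of BAG3, HSPB3 and HSPB8 had opposite signs in these sets. Without a library BAG3 at SNOWBALL_024757_st ran from 7.65 to 8.15 in Duroc and from 8.22 to 9.13 in PiNN, and with one from 8.17 to 8.56 in Duroc and from 7.01 to 7.95 in PiNN. The breeds thus did not overlap in either set, with PiNN the higher in the former and Duroc in the latter. This pattern was shown by 13 of the 45922 probe sets (0.0283%). It was picked after seeing the data, so that its share is a description and not a test. With each set taken singly, breeds did not overlap at 1.21% of all probe sets in the animals without a library and at 13.6% in those with one. At SNOWBALL_017238_s_st, the other probe set of BAG3, the differences were -0.24 and 0.31, and the breeds overlapped in both sets, with ranges of 7.76 to 8.06 in Duroc and 7.41 to 7.78 in PiNN among animals with a library. The breed difference was -0.56 and 0.76 for BAG3 at the former probe set, -0.60 and 0.60 for HSPB3 and -0.37 and 0.66 for HSPB8, in animals without and with a library. A sign that differed between these sets was found at 6 of the 11 member probe sets above background, as against 45.5% of all.

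The change in the breed difference was tested in a fit chosen after seeing the data. It was 1.33 for BAG3 (adjusted p = 0.0915 by limma), 1.20 for HSPB3 (0.129), 1.03 for HSPB8 (0.137) and 0.75 for HSPB2 (0.234). None of the 13 probe sets passed at the adjusted threshold, as against 0.00436% of all, and 5 of 13 had an unadjusted p under 0.05, as against 11.9%. These 5 include both probe sets of BAG3, and the same animals give all 13 values, so that they are not independent. Because the fit was chosen after seeing the data, this count is no test. Without PiNN 49 the change was 1.03 for BAG3 (adjusted p = 0.347) and 0.93 for HSPB3 (adjusted p = 0.424). The array background was 3.94 to 4.21 in the 3 PiNN animals with a library and 3.79 to 3.83 in the 4 Duroc animals with one. In animals without a library it was 3.83 to 4.09 in PiNN and 3.78 to 4.10 in Duroc. Animals with a library had numbers from 38 to 58. The others had numbers from 19 to 36, but for Duroc 46 and 59 and PiNN 62. The parts of array background, animal number and library in these values were not tested and cannot be told apart here.

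**Figure D4:**
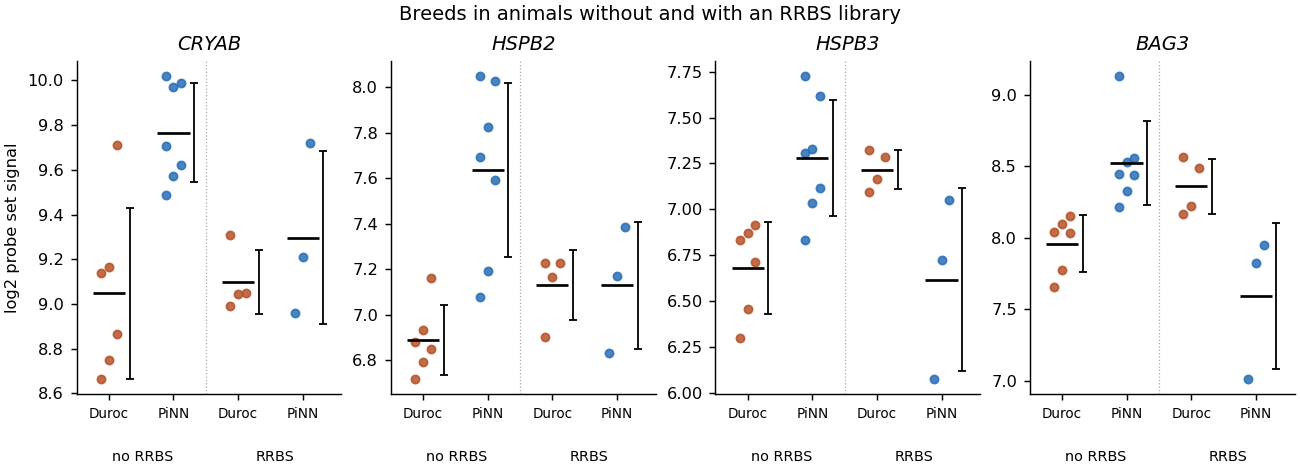
Log2 signal (y axis) of CRYAB, HSPB2, HSPB3 and BAG3 in Duroc and PiNN animals without and with an RRBS library (x axis), with 1 point per animal, a line at the mean and a bar of 1 SD. For BAG3 (SNOWBALL_024757_st) the PiNN animals without a library start at 8.22, above all Duroc animals without one, and those with a library end at 7.95, below all Duroc animals with one.

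Genes that work with the members were counted from lists. The lists were chosen with earlier results of these data known, so that the counts are descriptions and not tests. Of the 6 measured partners of chaperone-assisted autophagy, 2 passed and both were higher in PiNN, where 2.33% of all genes were. DNAJB6, a J-domain protein that holds aggregating clients and is mutated in a human limb girdle muscular dystrophy, was 5.99 ± 0.19 in Duroc and 6.31 ± 0.14 in PiNN (difference -0.33, SE 0.08, adjusted p = 0.0272 by limma). VPS18, of the complex that tethers vesicles for fusion with lysosomes, was 5.74 ± 0.18 and 6.02 ± 0.12 (difference -0.28, SE 0.08, adjusted p = 0.0476). At each of these genes all 10 Duroc animals were below the PiNN median. HSPA8 and STUB1 themselves differed by 0.00 (adjusted p = 0.995) and -0.27 (adjusted p = 0.290). SYNPO2 of the same list went the other way, with a difference of 0.15 (adjusted p = 0.324 by limma) and 0 Duroc animals below the PiNN median. Means were higher in PiNN for 4 of the 6 genes, as against 56.7% of all genes. The call for DNAJB6 was lost without Duroc 46 (adjusted p = 0.0533), PiNN 22 (0.0503) or PiNN 36 (0.0518). That for VPS18 held in 5 of the 20 fits, those without Duroc 28, 31 or 32 or PiNN 20 or 49, with adjusted p of 0.0296 to 0.0915 over all 20. In animals without and with an RRBS library DNAJB6 differed by -0.50 (adjusted p = 0.0223) and -0.04 (0.935), and VPS18 by -0.25 (0.287) and -0.32 (0.360). For VPS18 adjusted p was 0.0667 once array background was a covariate.

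Of the 6 measured kinases that act on small heat shock proteins, 1 passed, with the higher signal in PiNN, as did 2.33% of all genes. MAPKAPK3, which phosphorylates HSPB1, was 6.69 ± 0.24 in Duroc and 7.48 ± 0.21 in PiNN. Its difference was -0.79 (SE 0.10, adjusted p = 0.000258 by limma) and both of its probe sets passed. All 10 Duroc animals were below the PiNN median. In animals without and with an RRBS library it differed by -0.78 (adjusted p = 0.0135) and -0.79 (0.116). MAPKAPK2 differed by 0.02 (adjusted p = 0.960), and the median of the kinases was -0.03.

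Most of the other heat-inducible chaperones that were measured had the opposite sign to most members. HSPA1A, HSPA1B, HSPA1L and HSPA4 of this list were not measured. Of the 12 measured, 10 had a higher mean in Duroc, as did 5899 of all 13609 genes, and their median difference was 0.22. Only 1 of the 12 passed, where 4.06% of all genes passed with the higher signal in Duroc. CHORDC1, a co-chaperone of HSP90, was 8.27 ± 0.29 in Duroc and 7.53 ± 0.58 in PiNN (difference 0.74, SE 0.19, adjusted p = 0.0247 by limma). This was the brighter of its 2 probe sets, and the other did not pass. At the brighter one adjusted p was 0.0512 without PiNN 36, 0.0536 with the ANOVA of the methods, 0.284 in animals without an RRBS library (difference 0.56) and 0.0595 in those with one (difference 1.04). Among the 12, DNAJB1 and HSPA4L were below background. Of the heat shock factors, which drive transcription of chaperone genes, HSF1 and HSF2 were measured, together with HSBP1, a binding protein that restrains HSF1, and 0 of these 3 passed. HSF2 differed by 0.21 (adjusted p = 0.169) and HSBP1, which was below background, by -0.10 (adjusted p = 0.581).

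Of the 9 measured genes for proteins that the members hold at filaments and the Z-disc, 0 passed, and their median difference was -0.03. PLEC, which links desmin to Z-discs, differed by -0.21 (adjusted p = 0.190 by limma) and SYNM, an intermediate filament protein, by 0.20 (adjusted p = 0.536). Of the 4 measured relatives of the members 0 passed: HSPB9 differed by 0.15 (adjusted p = 0.504) and CRYAA, the alpha-crystallin of the lens, by -0.11 (adjusted p = 0.841).

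**Figure D5:**
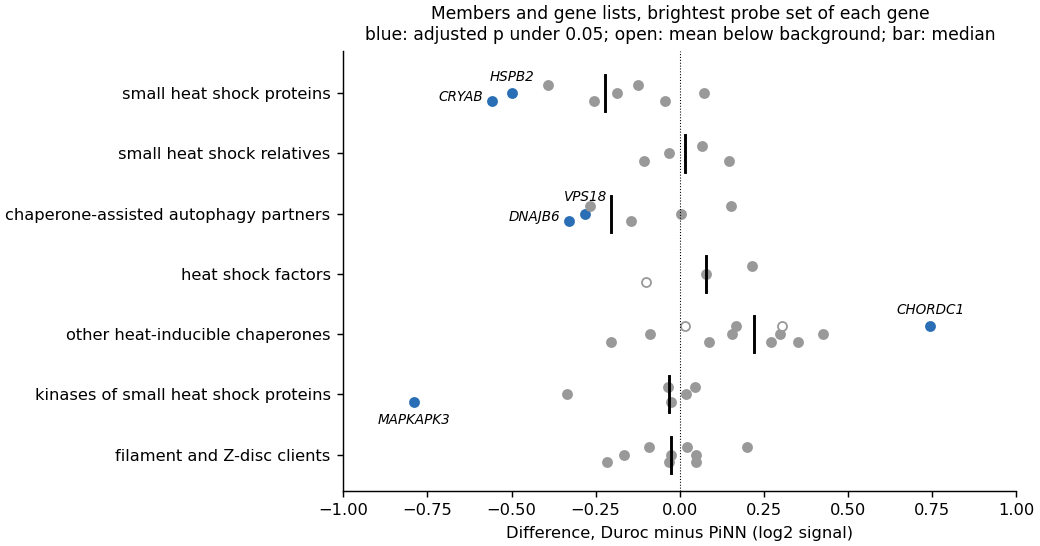
Difference of the breeds (x axis, Duroc minus PiNN, log2) for the brightest probe set of each gene, with the small heat shock proteins and 6 lists of related genes on the y axis and a bar at each list's median. The median lies at -0.22 for the small heat shock proteins and at 0.22 for the other heat-inducible chaperones.

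The genes whose pattern over animals was most like that of the members were found from the mean of the 8 standardized, breed-centred signals, among 11326 other genes above background. The closest were AHSA1, which activates the ATPase of HSP90 (r = 0.82 over 20 animals), MGST3, a microsomal glutathione transferase (0.82), ETFB, of the electron transfer flavoprotein (0.81), CIB2, a calcium- and integrin-binding protein (0.81), and EEF1A1, the elongation factor that brings tRNA to the ribosome (0.81). A correlation of at least 0.8 was reached by 7 genes. The joint pattern was lowest in PiNN 49 and 41 and highest in PiNN 62 and 36.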

How the data were processed

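Log2 signals of probe sets, summarized and normalized by the authors, were used as deposited. The submitters' processing notes name GCOS 1.1.1, and how signals were summarized and normalized is not given in the sources used here. In all, 47845 probe sets were deposited, of which 1923 (controls, background probe sets, other species) were left out of the tests. Genes came from the platform annotation, with the brightest probe set (highest mean of 20 arrays) standing for a gene in lists and correlations. Breeds were compared with limma 3.58.1 in R 4.3.3 (two-sided eBayes test after lmFit, with breed and no covariate, and Benjamini-Hochberg adjustment over all 45922 probe sets, threshold 0.05), and the fit was tested on simulated data. Correlations and permutation tests were computed with NumPy 2.4.6 in Python 3.11.15. The number of arrays limits the precision. Each array is taken as 1 animal by its label. All members were named, with list genes that passed or, where none did, the 2 with the largest differences, and the 5 genes of most similar pattern. Some further list genes were named beside these. The members and lists were chosen with earlier results of these data known. Alternatives were q-values, unadjusted p-values, the methods' ANOVA, probe sets above background only, quantile normalization, median centring, another variance model, array weights, the array background as a covariate, animals with or without an RRBS library, and leaving out each animal. Animals with an RRBS library were found by the animal numbers the study lists. The study states that all its Duroc RRBS animals were among the array animals, but the number of 1 of them matches no array here, so which Duroc arrays had a library is in doubt to that extent.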

Additional observations from a re-analysis of the deposited data

Results flagged for a closer look

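In 3 of the 26 groups of 10 animals examined (13 probe sets in each breed), the highest or lowest animal stood apart from the other 9 by Dixon's test, which chance gives in about 1 of 20 groups. At SNOWBALL_012453_st of CRYAB, Duroc 32 had the lowest signal of its breed, 4.18, with the next at 5.08. At SNOWBALL_032118_st of CRYAB, PiNN 20 had the highest, 2.74, with the next at 2.33. At SNOWBALL_033337_st of HSPB8, PiNN 36 had the highest, 2.34, with the next at 1.90. The last pair of probe sets lay below background.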

How the results depend on the processing

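The number of member probe sets that passed was 2, and it was 1 with the ANOVA of the methods (CRYAB), 4 with unadjusted p-values, 0 in the animals with an RRBS library alone and 1 to 3 when each animal was left out in turn. With q-values, brighter probe sets, quantile normalization, median centring, the other variance model, array weights, the background as a covariate and the animals without an RRBS library it stayed 2. Over all probe sets 1917 passed, against 7941 with unadjusted p-values, 3135 with array weights, 585 in animals without an RRBS library, 389 in those with one and 1174 to 2489 with 1 animal left out. The pairs of genes that passed were 7, against 1 with Spearman's rho, 1 without PiNN 49, 3 without the 2 animals farthest from the median and 1 with the array background removed. In the animals with an RRBS library alone, the difference turned to 0.0018 for HSPB2, 0.60 for HSPB3, -0.061 for HSPB6, 0.66 for HSPB8 at SNOWBALL_016512_s_st, and 0.76 and 0.31 for BAG3. With 1 animal left out, the difference of HSPB8 ran from -0.13 to 0.027 and that of CRYAB at SNOWBALL_012453_st from -0.15 to 0.039. The cause was not tested. Of the list genes 4 passed, also when any probe set of a gene counted. In animals without an RRBS library 4 passed too, of which 2 were shared (DNAJB6 and MAPKAPK3), with AKT1 and STUB1 in place of VPS18 and CHORDC1. No paired analysis was possible because the Duroc and PiNN animals share no replicate numbers. Probe sets below background carry no usable level.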
